A study of Homo sapiens with 3 samples.

Results

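The proteasome genes of Caki-1 cells were followed through knockdown of RBCK1. The set holds every protein-coding row whose symbol begins with PSM, a letter from A to G and a number, apart from the immunoproteasome genes PSMB8 and PSMB9, and it takes 47 of the 44591 rows in the deposited table (19233 of them protein-coding). Caki-1 is an established human renal carcinoma line. The cells were transfected with a non-targeting siRNA (si-Control) or with an siRNA that targets RBCK1, either si-RBCK1 #1 or si-RBCK1 #2, and RNA was taken 48 h later. There was 1 library per condition, so no difference has a replicate check and no p-value was computed. The siRNAs are different reagents, so their values are given separately and they were not treated as replicates. Both comparisons use the same si-Control library, so whatever is particular to that library enters both.

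The proteasome degrades proteins that carry ubiquitin chains. Its core particle is a barrel of stacked α and β rings with the proteolytic sites on the inside of the β rings. A regulatory particle sits on each end, with a base that unfolds substrates by ATP hydrolysis and a lid that removes their ubiquitin. Dedicated chaperones assemble both particles, and subunits are often regulated together in transcription. RBCK1, also called HOIL-1L, belongs to the linear ubiquitin chain assembly complex, a ubiquitin ligase.

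The sense strands of both siRNAs are shown because they are what separates the treated libraries. Capitals mark bases 12 to 18 from the 5′ end, which have the sequence of a site for guide positions 2 to 8 (the seed).
si-RBCK1 #1: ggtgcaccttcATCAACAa
si-RBCK1 #2: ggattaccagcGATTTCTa
The full 19 bases were found in the longest protein-coding transcript (GENCODE v29) of 0 of the 47 genes with either siRNA. The capital bases of si-RBCK1 #1 occurred in 6 of these transcripts and those of si-RBCK1 #2 in 9. The share of all protein-coding transcripts that hold them was not counted, so neither count can be called high or low.

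Values are RPKM (reads scaled by gene length and by library total). Ratios are differences of log2(RPKM + 1), which understates the change of low genes. A gene is counted as higher past the limit where it was at least 25% above si-Control on this scale (log2 ratio 0.32), and as lower past the limit where it was at least 20% below (log2 ratio -0.32). Where 3 levels follow each other, they are those of si-Control, si-RBCK1 #1 and si-RBCK1 #2. RBCK1 (hg19 chr20:388694-412783, plus strand) was at 33.3 RPKM in si-Control, 9.97 RPKM after si-RBCK1 #1 and 12.3 RPKM after si-RBCK1 #2, so the labelled target was lower in each library. The RPKM values were scaled by 36344428 to 40442939 reads per library. All 47 proteasome genes gave whole reads with these totals, from 339 to 33673 per library for the 45 genes that average 1 RPKM or more, and the 95% intervals below (exact Clopper-Pearson, on reads without a pseudocount) cover counting error only. These reads are the smallest whole numbers that the RPKM values allow. Where the true counts were a multiple of them, the counting error was smaller than shown. Of 5 renal markers PAX8 (82.5 to 124 RPKM) was well above 1 RPKM, while PAX2, CDH16 and CA9 were below 1 RPKM in every library. The summed renal list was 125 RPKM in si-Control, 84.4 RPKM after si-RBCK1 #1 and 108 RPKM after si-RBCK1 #2. The simple-epithelium list (KRT8, KRT18, KRT19 and EPCAM) was 162, 316 and 412 RPKM in the same order, almost all from KRT8 and KRT18. LHX1 was at 0.371 to 1.38 RPKM. Endothelial markers summed to at most 0.0247 RPKM in any library, PTPRC reached at most 0.0223 RPKM, and CD3E was listed at 0. CD68 was at 41.8 to 52.3 RPKM, COL1A1 at 3.21 to 4.68 RPKM and ALB at 0.255 to 0.381 RPKM. Whether these shifts bear on the proteasome genes was not tested. In such bulk RNA, fewer cells of a kind and less RNA per cell cannot be told apart.

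Proteasome genes were mostly higher after knockdown, and more so after si-RBCK1 #1 than after si-RBCK1 #2. The median log2 ratio of the 45 genes was 0.39 after si-RBCK1 #1 and 0.20 after si-RBCK1 #2, beside 0.029 and 0.047 over all 10775 protein-coding genes that average 1 RPKM or more. Without PSMC3IP, which the name rule takes but which is not a proteasome subunit, the medians were 0.36 and 0.18. After si-RBCK1 #1, 37 of 45 were higher by any amount (52.4% of all genes were), and after si-RBCK1 #2, 28 of 45 were (54.6% of all genes). At least 25% higher were 24 of 45 after si-RBCK1 #1 and 18 of 45 after si-RBCK1 #2, against 25.9% of all genes in each case. At least 20% lower were 2 of 45 after si-RBCK1 #1 (23.1% of all genes) and 5 of 45 after si-RBCK1 #2 (19.6%). At least 25% higher after each siRNA were 17 of 45 (19.1% of all genes), and at least 20% lower with each were 2 of 45 (15.0%). The count of 18 rests on the scaling of the libraries, since it was 12 of 45 with equal library medians (22.1% of all genes) and 13 of 45 with equal totals (23.6%), close to the background. The 17 genes higher after each siRNA likewise became 10 (16.7% of all genes) and 11 (16.7%), while the 24 after si-RBCK1 #1 became 23 with either scaling (24.4% and 22.5%). The summed level of the 45 genes was 3286 RPKM in si-Control, 4313 RPKM after si-RBCK1 #1 and 3707 RPKM after si-RBCK1 #2.

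The differences were small in fold terms. At a limit of 1.5-fold, 15 of 45 genes were higher after si-RBCK1 #1 (11.7% of all genes) and 2 of 45 after si-RBCK1 #2 (11.1%), so the share of members past this limit after si-RBCK1 #2 was below the background. At 1.5-fold lower there were 0 of 45 (10.6% of all genes) and 1 of 45 (8.38%). Only PSMD3 was at least 2-fold higher, and it was so after each siRNA (2.42% of all genes after si-RBCK1 #1 and 2.16% after si-RBCK1 #2).

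**Figure D1:**
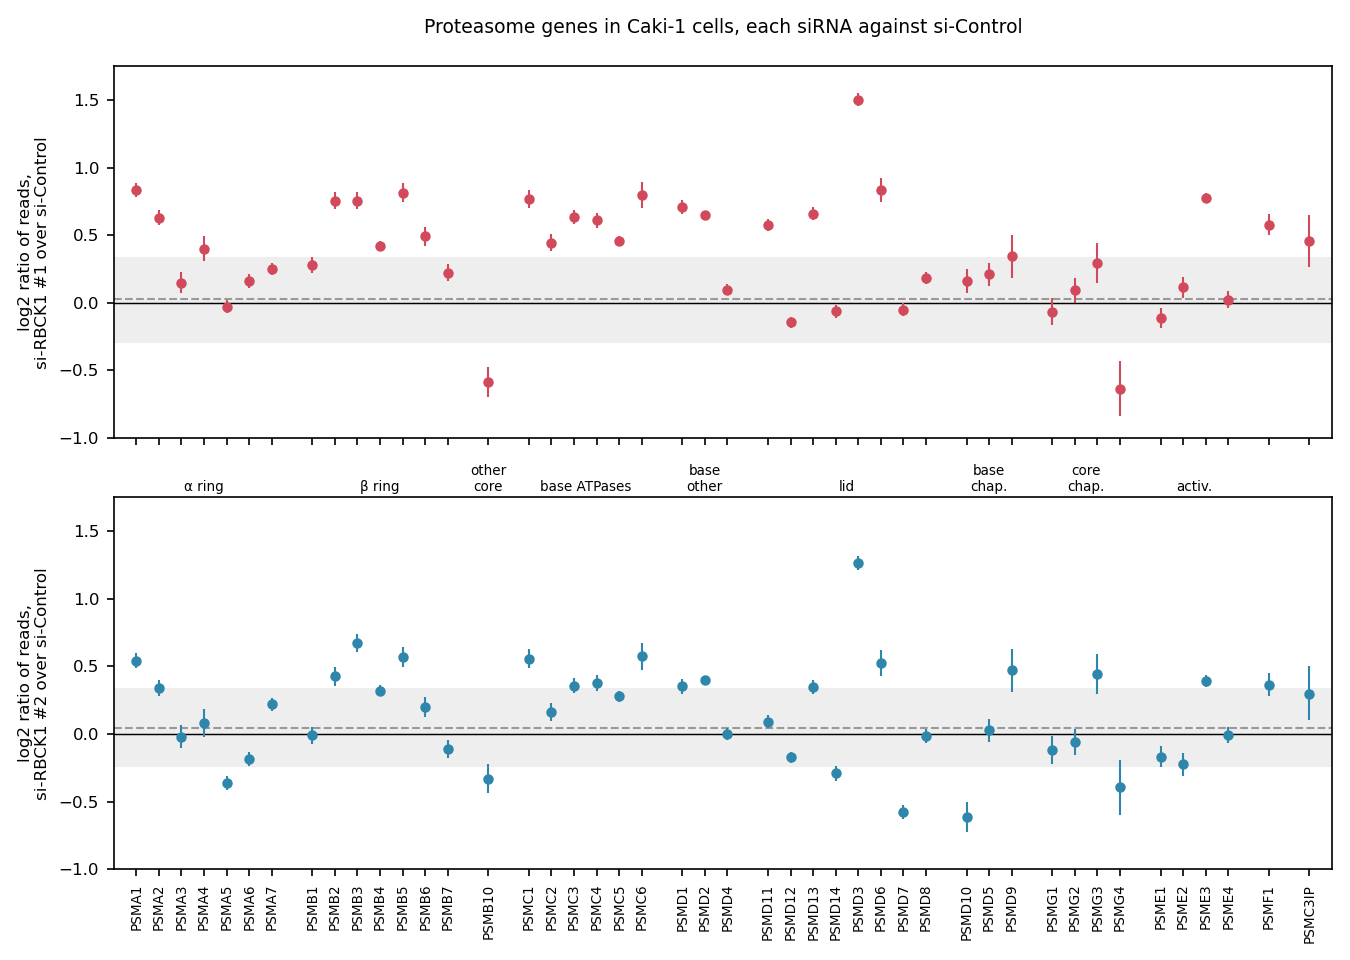
Log2 ratio of reads over si-Control (y axis) for the 45 proteasome genes that pass the filter, by role (other core, PSMB10; base other, the non-ATPases; chap., assembly chaperones; activ., activators), for si-RBCK1 #1 in the upper and si-RBCK1 #2 in the lower panel; bars are 95% counting intervals, the dashed line is the median of 10775 protein-coding genes (computed on the log2(RPKM + 1) scale) and the grey band their middle 50%. The base genes lie above 0 in both panels apart from PSMD4, which is at 0.00 in the lower, PSMD3 is the highest point in each, and PSMB10 and PSMG4 lie below -0.32 in both. PSMA5, PSMD7, PSMD12, PSMD14, PSMG1 and PSME1 also lie below 0 in both.

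The base had the highest median of the regulatory and core parts. The median over its 9 subunits was 0.63 after si-RBCK1 #1 and 0.35 after si-RBCK1 #2, and all 9 were above si-Control after each siRNA, except that PSMD4 after si-RBCK1 #2 (0.00) turned to -0.058 after scaling to equal library medians. The 14 core subunits had medians of 0.41 and 0.21, with 13 and 9 higher. The 8 lid subunits had medians of 0.37 and 0.037, with 5 and 4 higher, and the second value was -0.022 with equal medians and -0.015 without PSMD3, a setting chosen after the data were seen. Without PSMD3 the lid median after si-RBCK1 #1 was 0.18. At least 25% higher after each siRNA were 6 of 9 base, 5 of 14 core and 3 of 8 lid genes. The share of all genes was 19.1%, and 16.7% with equal library medians. With equal medians the si-RBCK1 #2 ratios of PSMC3 (0.29), PSMC4 (0.31) and PSMD1 (0.29) in the base fell below the limit. So did those of PSMA2 (0.28) in the core and PSMD13 (0.28) in the lid. The base thus lost more genes on this count than the core or the lid, so its lead in share narrowed with equal medians. The ranges overlapped: the base ran from 0.10 to 0.77 after si-RBCK1 #1, the core from -0.03 to 0.82 and the lid from -0.14 to 1.49. Summed RPKM was 1.42-fold that of si-Control for the base after si-RBCK1 #1, 1.33-fold for the core and 1.32-fold for the lid, and after si-RBCK1 #2 it was 1.22-fold, 1.16-fold and 1.08-fold. The order of base, core and lid was the same after each siRNA, though core and lid were nearly level after si-RBCK1 #1 (group means 0.434 and 0.431). Both comparisons share the si-Control library, and no test of the differences between the parts was possible.

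Among the 7 α subunits, which form the outer rings and gate the barrel, PSMA1 was highest and PSMA5 lowest in ratio. PSMA1 (chr11:14526422-14665180, minus strand; all gene positions are hg19) was at 60.8 RPKM in si-Control, 108 RPKM after si-RBCK1 #1 and 88.5 RPKM after si-RBCK1 #2 (log2 ratios 0.82 and 0.53). PSMA2 (chr7:42956460-42971805, minus) was at 73.1, 113 and 92.6 RPKM in the same order (0.62 and 0.34). These were the α genes at least 25% higher after each siRNA. PSMA5 (chr1:109941653-109969108, minus) was at 47.7, 46.8 and 37.2 RPKM, level with si-Control for si-RBCK1 #1 (log2 ratio on reads -0.03, interval -0.08 to 0.02) and lower for si-RBCK1 #2 (-0.36, -0.41 to -0.31). PSMA6 (chr14:35747764-35786685, plus) moved in opposite directions, at 129 RPKM in si-Control, 144 RPKM after si-RBCK1 #1 and 114 RPKM after si-RBCK1 #2 (0.16 and -0.18). The remaining PSMA3, PSMA4 and PSMA7 lay between 0.15 and 0.40 after si-RBCK1 #1 and between -0.02 and 0.22 after si-RBCK1 #2. PSMA3 shares its locus with opposite-strand RNAs, of which PSMA3-AS1 was at 3.88, 1.84 and 2.26 RPKM.

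The 7 β subunits had medians of 0.49 and 0.32 beside 0.25 and 0.079 for the α ring. Proteolysis is carried out by PSMB5 (chymotrypsin-like activity), PSMB6 (caspase-like) and PSMB7 (trypsin-like). PSMB5 (chr14:23495060-23504429, minus) was at 47.3 RPKM in si-Control, 83.3 RPKM after si-RBCK1 #1 and 70.1 RPKM after si-RBCK1 #2 (log2 ratios 0.80 and 0.56). PSMB6 (chr17:4699439-4701798, plus) was at 89.0, 125 and 102 RPKM (0.49 and 0.20). PSMB7 (chr9:127115744-127177752, minus) was at 109, 127 and 101 RPKM (0.22 and -0.11). The catalytic genes thus differed among themselves, with PSMB5 at least 25% higher after each siRNA, PSMB6 after si-RBCK1 #1 alone and PSMB7 with neither. On the opposite strand of PSMB7 lies LOC100129034, at 19.4 RPKM in si-Control, 6.44 RPKM after si-RBCK1 #1 and 10.4 RPKM after si-RBCK1 #2. The sources used here do not say whether reads were counted by strand, so reads of overlapping genes may be shared. Of the 47 genes, 8 overlap an opposite-strand row that averaged 1 RPKM or more.

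Of the non-catalytic β subunits, PSMB3 had the highest ratio of the ring after si-RBCK1 #2 and the second highest, after PSMB5, with si-RBCK1 #1. PSMB3 (chr17:36908966-36920484, plus) was at 107 RPKM in si-Control, 180 RPKM after si-RBCK1 #1 and 170 RPKM after si-RBCK1 #2 (0.75 and 0.67), the smallest difference between the siRNAs among the 5 core genes at least 25% higher after each. PSMB2 (chr1:36065142-36107445, minus) was at 32.3, 54.6 and 43.4 RPKM (0.74 and 0.42). PSMB1 (chr6:170844204-170862417, minus) was at 124, 150 and 123 RPKM (0.28 and -0.01), higher after si-RBCK1 #1 only. PSMB4 had the highest level of all proteasome genes in every library (278, 372 and 347 RPKM) and ratios of 0.42 and 0.3195, the latter just short of the limit of 0.3219.

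PSMB10, the trypsin-like subunit that replaces PSMB7 in immunoproteasomes, moved the other way. PSMB10 (chr16:67968407-67970780, minus) was at 82.1 RPKM in si-Control, 54.7 RPKM after si-RBCK1 #1 and 65.3 RPKM after si-RBCK1 #2, with log2 ratios on reads of -0.59 (interval -0.70 to -0.47) and -0.33 (-0.44 to -0.22). The other inducible catalytic subunits, which the name rule leaves out, were also lower in each treated library. PSMB9 was at 35.4, 19.7 and 25.5 RPKM (-0.81 and -0.46) and PSMB8 at 48.9, 41.8 and 42.1 RPKM (-0.22 and -0.21). For all 3 inducible subunits si-Control was the highest library. The testis subunit PSMA8 (chr18:23713811-23773319, plus; 4, 2 and 0 reads) and the thymus subunit PSMB11 (chr14:23511376-23513269, plus; 1, 0 and 0 reads) failed the filter on low values, and no fold is given for them.

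The 6 ATPases PSMC1 to PSMC6 form the ring of the base that pulls substrates into the barrel, and they moved in the same direction throughout. Their log2 ratios ran from 0.43 to 0.77 after si-RBCK1 #1 and from 0.16 to 0.56 after si-RBCK1 #2, so that each of the 6 was higher than si-Control after each siRNA. PSMC6 (chr14:53173896-53194716, plus) was at 24.0 RPKM in si-Control, 41.6 RPKM after si-RBCK1 #1 and 35.7 RPKM after si-RBCK1 #2 (0.77 and 0.56). PSMC1 (chr14:90722894-90738969, plus) was at 43.9, 74.9 and 64.6 RPKM (0.76 and 0.55). PSMC3 (chr11:47440320-47448024, minus) was at 80.9, 126 and 104 RPKM (0.63 and 0.35). These genes kept the same order of libraries, si-RBCK1 #1 highest and si-Control lowest. PSMC4 (chr19:40476912-40487671, plus) was at 58.0, 88.6 and 75.4 RPKM (0.60 and 0.37). PSMC2 (chr7:102987971-103009842, plus) had the lowest ratio of the ATPases after each siRNA, at 29.2, 39.8 and 32.7 RPKM (0.43 and 0.16). PSMC5 had ratios of 0.46 and 0.28, and FTSJ3 on its opposite strand was at 26.2 RPKM in si-Control, 58.0 RPKM after si-RBCK1 #1 and 52.8 RPKM after si-RBCK1 #2.

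The base also holds the large scaffold subunits PSMD1 and PSMD2 and the ubiquitin receptor PSMD4. PSMD2 (chr3:184016886-184026842, plus) was at 167 RPKM in si-Control, 263 RPKM after si-RBCK1 #1 and 221 RPKM after si-RBCK1 #2, with log2 ratios on reads of 0.65 (0.63 to 0.68) and 0.40 (0.38 to 0.43). PSMD1 (chr2:231921578-232037541, plus) was at 41.8, 68.3 and 53.4 RPKM (0.70 and 0.35). PSMD4 (chr1:151227176-151239955, plus) was at 177, 189 and 177 RPKM (0.10 and 0.00). The receptor thus stayed near its control level while both scaffolds were at least 25% higher after each siRNA.

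**Figure D2:**
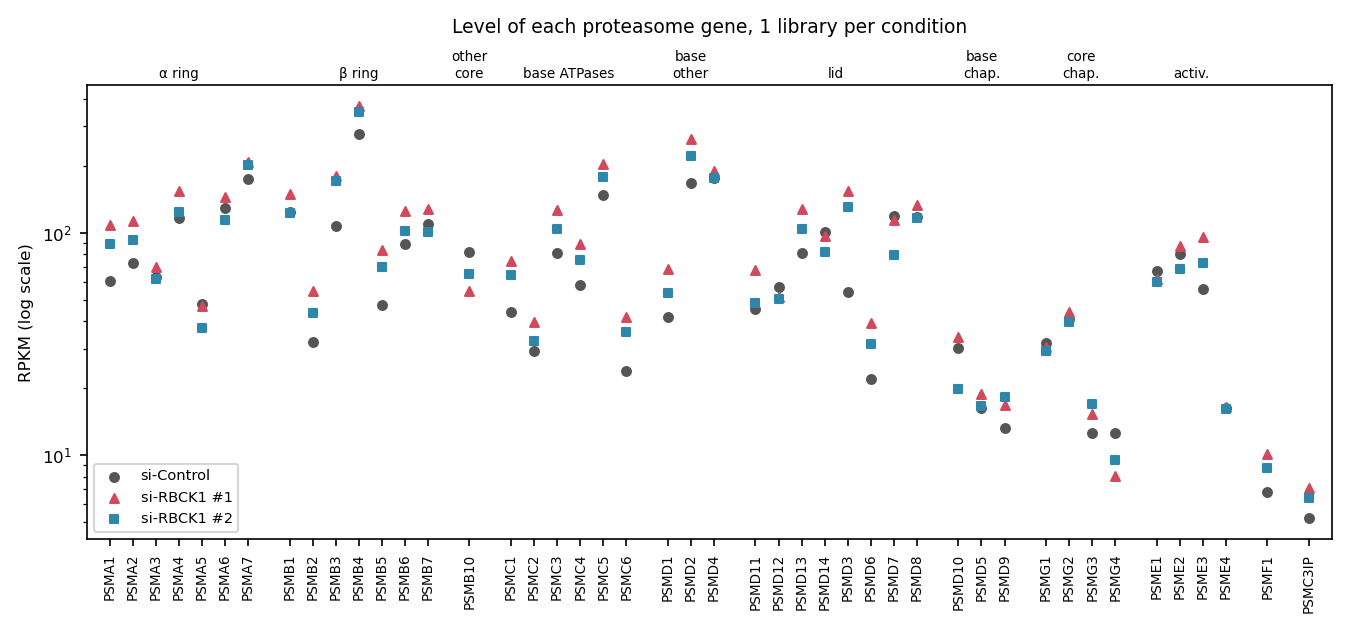
RPKM of each of the 45 proteasome genes (y axis, log scale) in si-Control (grey circles), si-RBCK1 #1 (red triangles) and si-RBCK1 #2 (blue squares), by role. Levels range from 5.18 to 372 RPKM, and PSMD3 shows the widest gap between si-Control (54.1 RPKM) and the treated libraries (153 and 130 RPKM).

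The lid had the widest range of log2 ratios of the 3 subcomplexes. PSMD3 (chr17:38137021-38154213, plus), a structural lid subunit, was at 54.1 RPKM in si-Control, 153 RPKM after si-RBCK1 #1 and 130 RPKM after si-RBCK1 #2. That is 2.83-fold and 2.40-fold the control, with counting intervals on the log2 scale of 1.45 to 1.55 and 1.21 to 1.31, the highest of the 45 genes after each siRNA. By level PSMD3 stood at place 26 among the 47 genes in si-Control, place 8 after si-RBCK1 #1 and place 7 after si-RBCK1 #2. Among all 10775 protein-coding genes its ratio ranked 44 and 97 from the highest. PSMD6 (chr3:63996225-64009686, minus) was at 22.0, 39.2 and 31.6 RPKM (0.81 and 0.50), and PSMD13 (chr11:236808-252984, plus) at 81.2, 128 and 103 RPKM (0.65 and 0.34). Both are structural lid subunits and completed the lid genes at least 25% higher after each siRNA.

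PSMD7 and PSMD14 form the pair that carries the lid's deubiquitinase activity, with PSMD14 as the enzyme. PSMD7 (chr16:74330673-74340186, plus) was at 118 RPKM in si-Control, 114 RPKM after si-RBCK1 #1 and 79.3 RPKM after si-RBCK1 #2, with log2 ratios on reads of -0.05 (-0.10 to 0.00) and -0.58 (-0.63 to -0.53). PSMD14 had ratios of -0.06 and -0.29. Neither gene of this pair was higher than si-Control in a treated library. On the opposite strand of PSMD14, LOC100506055 was at 29.0, 29.3 and 27.9 RPKM. PSMD12 was lower after each siRNA (-0.14 and -0.17), while PSMD11 (0.57 and 0.09) and PSMD8 (0.18 and -0.01) were mainly higher after si-RBCK1 #1.

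Both groups of assembly chaperones had medians nearer to 0 than the base and the core after si-RBCK1 #1. PSMD5, PSMD9 and PSMD10 guide the ATPases into the base, and their median ratios were 0.20 and 0.025. PSMD9 (chr12:122326637-122355771, plus) was at 13.2 RPKM in si-Control, 16.7 RPKM after si-RBCK1 #1 and 18.2 RPKM after si-RBCK1 #2 (0.32 and 0.44), with a first value just inside the limit. PSMD10 (chrX:107327435-107334874, minus), also known as gankyrin, was at 30.4, 34.0 and 19.8 RPKM, with log2 ratios on reads of 0.16 (0.07 to 0.25) and -0.61 (-0.72 to -0.51). It was the member in which the siRNAs differed most. PSMG1 to PSMG4 assemble the α ring, with medians of 0.015 and -0.087. PSMG3 (chr7:1606968-1609668, minus) was at 12.5, 15.3 and 17.0 RPKM (0.27 and 0.41). PSMG4 (chr6:3259162-3268300, plus) was at 12.5, 8.04 and 9.51 RPKM (-0.58 and -0.36) and was, with PSMB10, 1 of the 2 members at least 20% lower after each siRNA. PSMG3 and PSMG4 act as a pair, and their ratios had opposite signs after each siRNA.

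Among the activators that can replace the regulatory particle, PSME3 stood apart. PSME3 (chr17:40985159-40995777, plus), the nuclear activator, was at 55.8 RPKM in si-Control, 95.6 RPKM after si-RBCK1 #1 and 73.3 RPKM after si-RBCK1 #2 (0.77 and 0.39). PSME1 (chr14:24605367-24608176, plus) was at 67.0, 62.0 and 59.7 RPKM (-0.11 and -0.17), with EMC9 on its opposite strand at 9.78, 7.31 and 6.25 RPKM. Its interferon-induced partner PSME2 (chr14:24612574-24615855, minus) was at 80.1, 86.8 and 68.6 RPKM (0.11 and -0.22). PSME4 had ratios of 0.02 and -0.01, with the first at 0.00 with equal medians and -0.03 with equal totals. The inhibitor PSMF1 (chr20:1093872-1152890, plus) was at 6.78, 10.1 and 8.73 RPKM (0.52 and 0.32), with its second value just inside the limit. PSMC3IP (chr17:40724328-40729849, minus), taken by the name rule but known as a recombination cofactor and not a proteasome subunit, was at 5.18, 7.12 and 6.38 RPKM (0.39 and 0.25), with MLX on its opposite strand at 11.8, 20.8 and 18.4 RPKM.

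Compared with each other, the treated libraries differed in a way shared by nearly all subunits. In 41 of 45 genes the level was lower after si-RBCK1 #2 than after si-RBCK1 #1, against 48.5% of all protein-coding genes. The count was 14 of 14 in the core, 9 of 9 in the base and 8 of 8 in the lid. The median log2 ratio of si-RBCK1 #2 over si-RBCK1 #1 was -0.29 in the core, -0.23 in the base and -0.27 in the lid, beside 0.0095 over all genes. Values ran from -0.75 (PSMD10) to 0.25 (PSMB10). The 4 genes that were higher after si-RBCK1 #2 were PSMB10, PSMD9, PSMG3 and PSMG4, none of them a constitutive subunit of the core, base or lid. RBCK1 itself was higher after si-RBCK1 #2 than after si-RBCK1 #1 (log2 ratio on reads 0.30, interval 0.20 to 0.39). Whether the residual RBCK1 level bears on this difference was not tested. At 1.1-fold below si-Control there were 10 of 45 genes after si-RBCK1 #2 (32.9% of all genes).

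**Figure D3:**
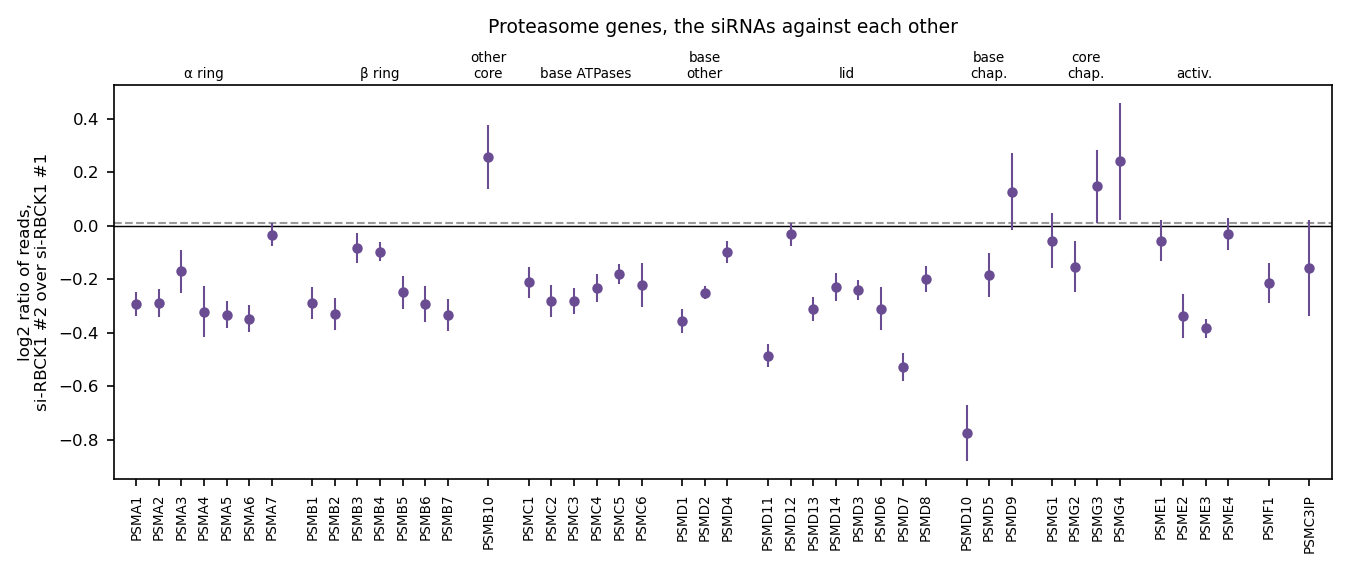
Log2 ratio of reads, si-RBCK1 #2 over si-RBCK1 #1 (y axis), for the 45 proteasome genes by role, with 95% counting intervals; the dashed line is the median of all protein-coding genes (0.0095, on the log2(RPKM + 1) scale). Every core, base and lid gene lies below 0, the chaperone gene PSMD10 is the lowest point, and PSMB10, PSMD9, PSMG3 and PSMG4 lie above 0.

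Seed matches were set beside the ratios of all 45 genes. The 6 genes with a match to si-RBCK1 #1 were PSMA5, PSMA7, PSMD7, PSMD12, PSMD14 and PSMG1. After si-RBCK1 #1 itself 5 of these 6 were below si-Control, by at most 0.14 on the log2 scale, and PSMA7 was above it (0.25), while 3 of the 39 genes without a match were below. After si-RBCK1 #2 the same 5 of 6 were also below si-Control, with a median of -0.23, against 12 of 39 without a match. Of the 9 genes with a match to si-RBCK1 #2, 3 were below si-Control after that siRNA, namely PSMD12 (-0.17), PSME1 (-0.17) and PSME2 (-0.22), against 14 of 36 without one. PSMC2, PSMD5 and PSME3, which held 2 matches each, had ratios of 0.16, 0.02 and 0.39. PSMD10, PSMG4 and PSMB10, which with PSMD7, PSMA5 and PSMD14 were the 6 lowest genes after si-RBCK1 #2, held no match to either siRNA. The median length of transcripts was 2054 nt with a match to si-RBCK1 #1 and 1580 nt without, and 3054 nt with a match to si-RBCK1 #2 and 1580.5 nt without. Of 10775 protein-coding genes, with a match or not, 52.4% were above si-Control after si-RBCK1 #1 and 54.6% after si-RBCK1 #2. Genes with and without a match were not compared over all genes. A match is a run of letters in a transcript, and off-target activity was not measured.

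Promoter windows from RefSeq (GRCh38.p14, 250 bases before to 50 after the start) were at hand for 41 of the 47 genes, and PSMA7, PSMB1, PSMB6, PSMB7, PSMD4 and PSMG3 had none in the table used. The antioxidant response element core TGACNNNGC, bound by NFE2L1 and NFE2L2, was searched on both strands (GCNNNGTCA on the other). It occurred in 14 of 41 proteasome genes (34.1%), in 19.7% of 8546 protein-coding genes that average 1 RPKM or more, and in 13.3% of all 35116 windows. The 14 genes with it had median log2 ratios of 0.26 and 0.052, and the 25 genes without it that pass the filter had 0.52 and 0.32. The groups overlapped, and PSMD3, highest of the 45 genes after each siRNA, was among the 14. CCAAT, bound by NF-Y and read as ATTGG on the other strand, occurred in 20 of 41 (48.8%), in 43.9% of the same protein-coding genes and in 34.6% of all windows, and medians were 0.43 and 0.25 with it and 0.37 and 0.20 without. A match to 1 motif cannot hold a match to the other, though matches can overlap at an edge.

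The stretches before the start are shown for the genes at least 25% higher after each siRNA that hold TGACNNNGC there, with every match to either motif in capitals. They are PSMD3, PSMB3 and PSMD9.
PSMD3 (chr17:39980557-39980806, plus strand): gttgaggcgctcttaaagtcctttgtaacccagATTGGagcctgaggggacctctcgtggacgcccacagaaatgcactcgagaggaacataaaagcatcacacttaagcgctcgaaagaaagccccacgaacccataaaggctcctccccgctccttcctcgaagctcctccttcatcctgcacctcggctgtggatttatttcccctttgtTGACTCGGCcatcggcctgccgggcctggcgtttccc
PSMB3 (chr17:38752607-38752675, plus strand): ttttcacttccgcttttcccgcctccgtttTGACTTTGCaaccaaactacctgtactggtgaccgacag
PSMD9 (chr12:121888611-121888726, plus strand): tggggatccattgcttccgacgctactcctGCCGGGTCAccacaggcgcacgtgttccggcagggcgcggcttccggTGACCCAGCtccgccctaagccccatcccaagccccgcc
In PSMD3 the element begins 37 bases before the start, in PSMB3 it begins 104 bases before, and in PSMD9 a match on the other strand begins 149 bases before and a match on the gene's strand 102 bases before. PSMD3 has a further match within its first transcribed bases, and PSMB3 has CCAAT 55 and 13 bases before the start, outside the stretch shown. No binding was measured here.

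Genes that work with the proteasome but fall outside the name rule went both ways. Of 27 such genes, all above the filter, 7 were at least 25% higher (19.1% of all genes) and 7 at least 20% lower (15.0%) after each siRNA, and their median log2 ratios were 0.21 and -0.0028. VCP (chr9:35056065-35072739, minus), the ATPase that extracts ubiquitinated proteins for degradation, was at 71.3 RPKM in si-Control, 173 RPKM after si-RBCK1 #1 and 158 RPKM after si-RBCK1 #2, or 2.43-fold and 2.22-fold the control. Its cofactor genes were higher as well, UFD1 (listed as UFD1L) at 15.6, 30.7 and 27.0 RPKM (0.94 and 0.75) and NPLOC4 at 76.9, 104 and 97.5 RPKM (0.44 and 0.34). VCP and its cofactors were thus above control in both treated libraries. VCP and PSMD3 were the only genes at least 2-fold higher after each siRNA among the 74 proteasome and linked genes. Of all genes, 2.42% were at least 2-fold higher after si-RBCK1 #1 and 2.16% after si-RBCK1 #2, and the share past this limit with both was not counted.

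Transcription of proteasome genes is raised by NFE2L1 when proteasome activity is short, and NFE2L1 protein is released by VCP, deglycosylated by NGLY1 and cleaved by DDI2. NFE2L1 was at 209 RPKM in si-Control, 162 RPKM after si-RBCK1 #1 and 153 RPKM after si-RBCK1 #2 (-0.36 and -0.44). NFE2L2, the related oxidative stress factor, was at 54.9, 38.8 and 42.3 RPKM (-0.49 and -0.37). NGLY1 was at 10.5, 7.57 and 6.21 RPKM (-0.43 and -0.68), and DDI2 at 2.72, 3.72 and 4.93 RPKM (0.34 and 0.67). Of the 45 genes taken by the name rule, 37 were higher by any amount after si-RBCK1 #1 (52.4% of all genes). After si-RBCK1 #2 28 of 45 were (54.6% of all genes). The mRNAs of both factors were lower after each siRNA. Activity of these factors is set largely on the protein, which was not measured.

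Ubiquitin genes and delivery factors were mixed. UBB, a polyubiquitin gene, was at 196 RPKM in si-Control, 290 RPKM after si-RBCK1 #1 and 308 RPKM after si-RBCK1 #2 (0.56 and 0.65). The shuttle factor RAD23B (97.0, 65.8 and 67.1 RPKM, -0.55 and -0.53) was lower, and the shuttle factor UBQLN2 (11.0, 15.5 and 15.8 RPKM, 0.47 and 0.49) was higher. ADRM1, the ubiquitin receptor of the base that the name rule misses, was at 81.9, 107 and 110 RPKM (0.38 and 0.42). UCHL5, the deubiquitinase that ADRM1 binds, was at 20.7, 12.1 and 13.2 RPKM (-0.73 and -0.62), and AKIRIN2, needed to bring proteasomes into the nucleus, at 24.0, 14.5 and 16.5 RPKM (-0.69 and -0.52). Receptor and deubiquitinase thus had opposite signs after each siRNA.

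**Figure D4:**
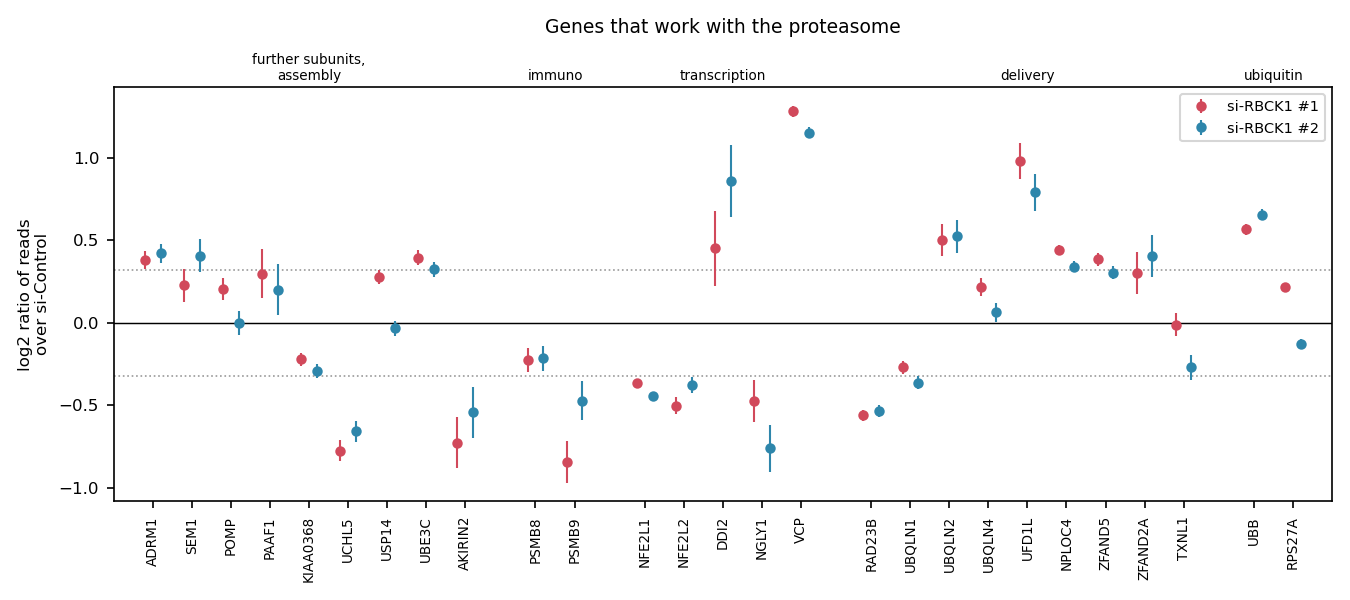
Log2 ratio of reads over si-Control (y axis) for 27 genes that work with the proteasome, for si-RBCK1 #1 in red and si-RBCK1 #2 in blue, 95% counting intervals, and dotted lines at log2 ratios of 0.32 and -0.32. VCP is the highest point for each siRNA, and PSMB9, UCHL5, AKIRIN2 and NGLY1 are among the lowest.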

How the data were processed

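RNA was depleted of ribosomal RNA and sequenced in pairs from a directional kit. The authors deposited 1 table of RPKM values, made from hg19 alignments; the submitters' processing notes name FastQC, Trimmomatic, TopHat2 and HTSeq, and the gene annotation is not given in the sources used here. Its columns of the authors' own comparison (group means, fold change, p and q) were not used. Ratios used log2(RPKM + 1) for genes that average 1 RPKM or more. 1 entry, not a proteasome gene, was not a number and was left out. Library totals came from RNAs of up to 200 nt, and each gene's reads are the smallest whole numbers that its RPKM values allow, for lengths of at most 50000 nt. The members and lists were chosen with earlier results of these data known. Values in every library are given for RBCK1, the catalytic subunits, PSMB10, members past the limit in the same direction with both siRNAs, the highest and lowest of each role group by the mean of both ratios (used for this choice alone), members of opposite sign differing by at least 0.2, and members below the filter. Other members and linked genes with values in the text, such as PSMB4, were named after their values were seen. A few genes of the marker and linked lists are not reported here and were left out of the counts. No test was possible with 1 library per condition. Alternatives changed the pseudocount, filter, scaling, fold limit and group membership. Steps were tested on simulated data. Values were computed in Python 3.11.15 (scipy 1.17.1, numpy 2.4.6 and pandas 2.3.3) and drawn in matplotlib 3.10.9.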

Additional observations from a re-analysis of the deposited data

How the results depend on the processing

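With 1 library per condition, no alternative has a spread between replicates to be read against. No paired analysis was possible because the labels give 1 library to each group. Of 100 recomputed medians and counts, 82 were called unchanged. For medians the allowed shift came from the typical width of the counting intervals of single genes in the group, and for counts it was 1.5 times. Of 630 recomputed values of single genes, 0 changed sign among those past the limit. The lowest average of a member past the filter was 6.23 RPKM. Changing the filter therefore could not move single genes or the core, base and lid, and these settings are among those called unchanged. Of smaller ratios, none above 0.025 in size, those of PSME4, PSMD4 and PSMD5 changed sign with equal medians and equal totals. After si-RBCK1 #1, the median of all members was 0.27 with a pseudocount of 5 RPKM. The base median was 0.58 with equal totals and 0.57 as a mean. The lid value was 0.32 with equal totals, 0.43 as a mean, 0.22 with SEM1 added and 0.18 without PSMD3. After si-RBCK1 #2, the base median was 0.29 with equal medians. The lid value was -0.022 with equal medians, 0.14 as a mean, 0.089 with SEM1 and -0.015 without PSMD3. At 1.5-fold, 15 and 2 members were higher and 0 and 1 lower. After si-RBCK1 #2, 10 were lower at 1.1-fold and 3 at the usual limit with a pseudocount of 5 RPKM. Changes with scaling, pseudocount and limit follow from how those settings are built.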

Other observations

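Rows for proteasome pseudogenes were almost empty. Of 38 such rows, 22 were at 0 in every library, and the highest value was 0.46 RPKM (PSMC1P1 after si-RBCK1 #1), against 74.9 RPKM for PSMC1 in the same library. Of the 5 antisense rows, PSMA3-AS1 (3.88 RPKM in si-Control, 1.84 RPKM after si-RBCK1 #1, 2.26 RPKM after si-RBCK1 #2), PSMB8-AS1 (2.54, 1.59 and 1.80 RPKM), PSMD5-AS1 (3.64, 1.57 and 1.85 RPKM) and PSMG3-AS1 (0.594, 0.261 and 0.213 RPKM) were each lower in both treated libraries, and PSMD6-AS2 (0.138, 0.300 and 0.280 RPKM) was higher. PSMG3-AS1 and PSMD6-AS2 were below 1 RPKM in every library. The share of all antisense rows that were lower was not counted.

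The protein-coding neighbours of PSMD3 within 50000 bases were also read. MED24, a subunit of Mediator, was at 9.64 RPKM in si-Control, 16.5 RPKM after si-RBCK1 #1 and 14.8 RPKM after si-RBCK1 #2 (log2 ratios 0.71 and 0.57). CSF3, which encodes granulocyte colony-stimulating factor, was at 1.99, 13.3 and 2.89 RPKM (2.25 and 0.38). GSDMA, on the other side, was at most 0.0686 RPKM in any library.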
